A study of Arabidopsis thaliana with 16 samples.

Results

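The genes examined here build the diffusion barriers of the root endodermis of Arabidopsis thaliana. They are 41 of the 32678 loci counted in every library: 26 suberin genes and 15 Casparian strip genes. They were chosen by locus identifier for their known roles and not by a cutoff on their levels, but with earlier results of these data known. All 41 loci were found in every count table and matched a RefSeq gene. The suberin genes comprised 10 enzymes of monomer synthesis, 5 ABCG transporters, 7 MYB regulators and 4 GDSL lipases. The Casparian strip genes comprised 5 CASP scaffold proteins, 3 proteins of lignin deposition, 4 of barrier surveillance and 3 transcription factors.

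The endodermis is the innermost cortical layer of the root and surrounds the vascular cylinder. Its cells first lay down the Casparian strip, a lignin band in which CASP proteins form a membrane platform that brings together a peroxidase, an NADPH oxidase and a dirigent-like protein, and which blocks movement through the cell walls. Later the cells coat their surface with suberin, a polyester of long-chain hydroxy acids, diacids, alcohols and ferulate, which limits uptake across the membrane and whose deposition changes with the nutrient status of the plant.

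RNA from roots and leaves was sequenced from 25-day-old plants kept on Oil-Dri pellets with Hoagland nutrients. EXS32 and EXS34 are 2 lines of the pho1-4 mutant that carry a GFP fusion of the EXS domain, the C-terminal membrane part of PHO1, KO is the pho1-4 mutant itself, and Compl is pho1-4 with the PHO1 gene put back. PHO1 exports phosphate from root cells towards the xylem, and every group carries pho1-4, so no wild type without the mutation or a transgene stands among these groups. Each EXS genotype is 1 line, the labels used here do not name the promoter of the transgenes, and each of the 8 groups (4 genotypes in 2 organs) has 2 libraries. Whether the 2 libraries of a genotype hold different plants is not stated, and p-values here reflect no more than the variation from library to library.

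Root libraries held 20139794 to 31405117 reads in genes, and leaf libraries held 9465995 to 15530134. Counts over the whole PHO1 locus do not check the genotypes, since they do not show which part of the gene was transcribed. They were 1456 to 2404 CPM (a gene's reads scaled to the size of its library) in EXS roots, 1987 to 2249 CPM in KO roots and 2166 to 2883 CPM in Compl roots. Root Compl replicate 1 stood apart from the other root libraries, at 52.9 on a first principal component that held 44.1% of the variance, where Compl replicate 2 was at 25.2 and the remaining 6 ranged over -35.9 to 9.13. For the 8 leaf libraries the names of the deposited tables give another genotype than the sample labels, and the labels were followed. Comparisons between roots and leaves averaged over genotypes do not depend on this, whereas every leaf comparison between genotypes does.

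Sequences are shown for the genes on which the root results turn. The promoters below are the 250 bases before the annotated gene start in the RefSeq TAIR10.1 genome, given 5′ to 3′ on the strand of the gene. They were searched on both strands for 3 AC elements, short motifs bound by MYB factors in phenylpropanoid genes. The first is spelled ACCTACC, the second of these motifs is spelled ACCAACC, and the last one is spelled ACCTAAC. Capitals mark a match. ASFT (AT5G41040), the acyltransferase that adds ferulate to suberin monomers, has its window at chr5:16431054-16431303 on the plus strand. GPAT7 (AT5G06090), a glycerol-3-phosphate acyltransferase, has its window at chr5:1834797-1835046 on the plus strand. MYB39 (AT4G17785), a regulator that activates suberin synthesis in the endodermis, has its window at chr4:9883433-9883682 on the minus strand.
ASFT promoter: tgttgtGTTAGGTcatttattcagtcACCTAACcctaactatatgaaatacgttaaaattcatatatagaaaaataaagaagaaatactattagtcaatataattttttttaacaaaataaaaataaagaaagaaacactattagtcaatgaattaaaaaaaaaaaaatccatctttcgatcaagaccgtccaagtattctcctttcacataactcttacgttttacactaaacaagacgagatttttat
GPAT7 promoter: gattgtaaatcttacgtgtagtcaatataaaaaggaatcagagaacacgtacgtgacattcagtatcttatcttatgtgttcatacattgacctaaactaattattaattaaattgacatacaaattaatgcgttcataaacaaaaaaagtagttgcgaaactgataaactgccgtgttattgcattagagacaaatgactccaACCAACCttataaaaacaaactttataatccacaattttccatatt
MYB39 promoter: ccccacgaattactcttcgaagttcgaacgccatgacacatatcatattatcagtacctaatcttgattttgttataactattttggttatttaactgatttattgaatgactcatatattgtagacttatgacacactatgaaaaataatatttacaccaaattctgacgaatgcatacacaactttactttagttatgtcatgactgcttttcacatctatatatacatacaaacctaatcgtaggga
The ASFT window held 2 matches to ACCTAAC, 1 on each strand, beginning 244 and 224 bases before the gene start, and the GPAT7 window held ACCAACC beginning 46 bases before it. No match lay in the MYB39 window. At least 1 of the 3 motifs lay in the windows of 3 of 26 suberin genes (11.54%), 1 of 15 Casparian strip genes (6.667%) and 1636 of 26711 protein-coding genes (6.125%). The motifs do not overlap each other, and the matches describe letters in these windows and not binding.

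A second pair of sequences bears on how far reads can be told apart. KCS2 (AT1G04220) and KCS20 (AT5G43760) encode paired 3-ketoacyl-CoA synthases of fatty acid elongation, and their coding sequences were 84.56% identical, the highest among the pairs of related members compared. The stretches below are positions 1350 to 1452 of the KCS2 coding sequence (chromosome 1) and 1374 to 1476 of that of KCS20 (chromosome 5), from TAIR10.1, around the longest run of identical bases.
KCS2 coding stretch: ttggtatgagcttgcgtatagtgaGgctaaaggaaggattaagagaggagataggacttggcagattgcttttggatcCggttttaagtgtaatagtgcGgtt
KCS20 coding stretch: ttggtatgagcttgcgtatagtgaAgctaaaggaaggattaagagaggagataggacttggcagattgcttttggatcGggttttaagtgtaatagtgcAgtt
Capitals mark the 3 positions that differ. The run between the first and second of them is 53 bases long, so reads wholly inside it cannot be assigned to either gene, and counts of such pairs are uncertain to that extent. In addition, exons of 15 of the 41 members overlap an exon of another annotated gene, in 13 cases one on the opposite strand. The libraries were made with a stranded kit, but the strand setting of the counts is not given in the sources used here, so levels of members such as ESB1, MYB9, ABCG2 and KCS2 may include reads of an overlapping transcript.

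Of the 26 suberin genes, 8 passed the test as lower and 1 as higher in EXS32 roots against Compl roots, while none of the 15 Casparian strip genes passed. The 8 were the enzyme genes ASFT, FAR4, FAR5, GPAT7, CYP86B1 and KCS2, the transporter gene ABCG6 and the regulator gene MYB39, with fold changes of -2.89 to -1.41 on the log2 scale. The test was the quasi-likelihood test of edgeR with adjustment over all 20597 genes tested in roots, and a gene is called where its adjusted p is under 0.05. By the same rule 12.4% of all genes were called, 7.27% as lower and 5.1% as higher. Higher genes thus made up 41.2% of the calls, against 50.3% when scaled by library size alone. All 41 members passed the filter on low counts in roots. The median log2 fold change of EXS32 over Compl was -1.47 over the suberin genes, -0.20 over the Casparian strip genes and -0.02 over all genes. In bulk roots, fewer cells of a type and less RNA per cell cannot be told apart.

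**Figure D1:**
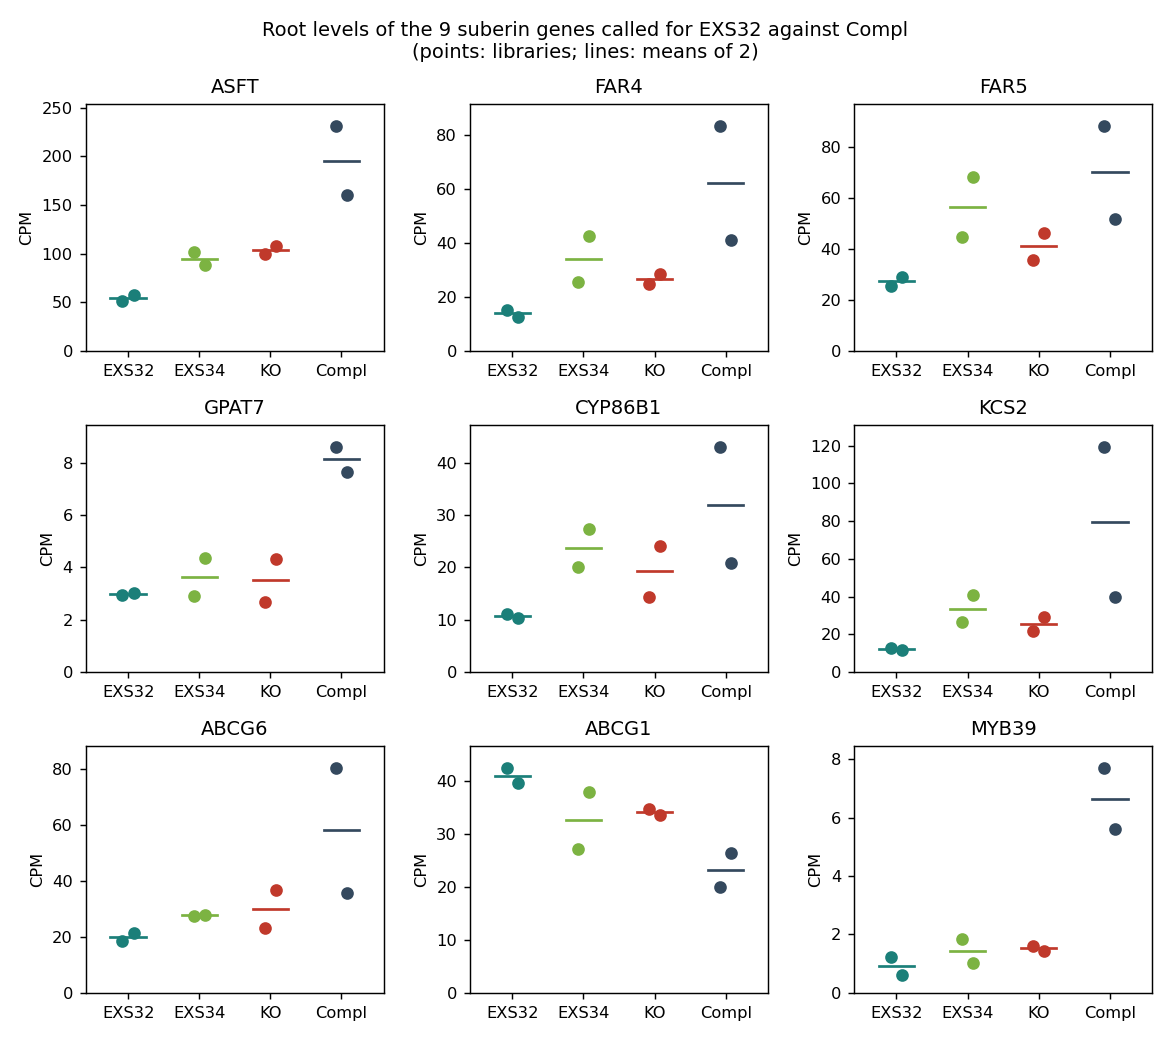
Root levels in CPM of the 9 suberin genes called for EXS32 against Compl, with 1 point per library, the mean of each genotype as a line and an axis of its own for each gene. EXS32 points lie below both Compl points for the 8 lower genes and above both for ABCG1, and Compl replicate 1, the left point of its group, is the highest library in each of the 8 lower genes (ASFT 231 CPM, KCS2 119 CPM).

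Among the monomer enzymes, ASFT had 51.4 and 57.6 CPM in EXS32 roots, 101 and 88.6 CPM in EXS34 roots, 99.4 and 108 CPM in KO roots, and 231 and 160 CPM in Compl roots. All 6 libraries of the mutant and the EXS lines were below both Compl libraries, and the EXS32 libraries were the lowest. The EXS32 level was -1.90 ± 0.19 on the log2 scale relative to Compl (SE; edgeR adjusted p = 0.00384). ASFT remained called in all 14 other settings tried, including each left-out library.

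FAR4 and FAR5 encode fatty acyl reductases that make the primary alcohols of suberin. FAR4 had 15.3 and 12.6 CPM in EXS32 roots, 25.7 and 42.7 CPM in EXS34 roots, 24.6 and 28.4 CPM in KO roots, and 83.2 and 41.1 CPM in Compl roots. FAR5 had 25.4 and 29.2 CPM in EXS32 roots, 44.8 and 68.5 CPM in EXS34 roots, 35.9 and 46.4 CPM in KO roots, and 88.2 and 51.9 CPM in Compl roots. For both genes EXS32 did not overlap Compl, whereas EXS34 did. The log2 fold changes of EXS32 over Compl were -2.21 ± 0.38 for FAR4 (edgeR adjusted p = 0.0147) and -1.41 ± 0.30 for FAR5 (edgeR adjusted p = 0.0284). The related gene FAR1 had -0.56 ± 0.16 and was not called (edgeR adjusted p = 0.0612).

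GPAT5 and GPAT7 transfer acyl groups to glycerol. GPAT7, a gene of low level, had 2.95 and 3.01 CPM in EXS32 roots, 2.89 and 4.37 CPM in EXS34 roots, 2.67 and 4.33 CPM in KO roots, and 8.59 and 7.64 CPM in Compl roots. Its 2 Compl libraries lay close together and above all 6 others, unlike those of most suberin genes. The fold change of EXS32 over Compl was -1.50 ± 0.30 (edgeR adjusted p = 0.0215). GPAT5, the better known root enzyme, had -1.38 ± 0.50 and was not called, with 52.9 CPM in Compl replicate 1 but 19.6 CPM in Compl replicate 2.

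CYP86A1 and CYP86B1 are cytochromes P450 that hydroxylate the ends of fatty acids. CYP86B1 had 11.1 and 10.3 CPM in EXS32 roots, 20.0 and 27.4 CPM in EXS34 roots, 14.4 and 24.1 CPM in KO roots, and 43.0 and 20.8 CPM in Compl roots. Compl replicate 2 was inside the range of the EXS34 and KO libraries, and EXS32 was below all others. Its fold change of EXS32 over Compl was -1.64 ± 0.39 (edgeR adjusted p = 0.0378). CYP86A1 was not called, at -1.44 ± 0.60, although its Compl replicate 1 held 294 CPM against 94.1 CPM in Compl replicate 2.

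KCS2 and KCS20, the elongation enzymes whose sequences are printed above, can be set side by side. KCS2 had 12.6 and 11.7 CPM in EXS32 roots, 26.4 and 40.6 CPM in EXS34 roots, 21.7 and 29.3 CPM in KO roots, and 119 and 39.7 CPM in Compl roots. KCS20 had 144 and 161 CPM in EXS32 roots, 146 and 142 CPM in EXS34 roots, 155 and 165 CPM in KO roots, and 206 and 123 CPM in Compl roots. The EXS32 libraries were below all others for KCS2, and for KCS20 they lay between the 2 Compl libraries. The log2 fold changes of EXS32 over Compl were -2.77 ± 0.51 for KCS2 (edgeR adjusted p = 0.0185) and -0.17 ± 0.23 for KCS20, which was not called. Over the 10 enzymes, 6 were called, all lower, and the median log2 fold change was -1.47.

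The ABCG transporters export suberin and cutin precursors across the membrane. ABCG6, which together with ABCG2 and ABCG20 is needed for the root suberin barrier, had 18.5 and 21.5 CPM in EXS32 roots, 27.6 and 27.9 CPM in EXS34 roots, 23.2 and 36.9 CPM in KO roots, and 80.4 and 35.8 CPM in Compl roots. EXS32 and EXS34 did not overlap Compl, and 1 KO library did. The fold change of EXS32 over Compl was -1.60 ± 0.38 on the log2 scale (edgeR adjusted p = 0.0388). ABCG2 had 24.6 and 24.7 CPM in EXS32 roots, 30.2 and 78.0 CPM in EXS34 roots, 30.0 and 44.1 CPM in KO roots, and 112 and 36.2 CPM in Compl roots. EXS32 was below Compl, and each of the other groups reached across Compl replicate 2. ABCG2 and ABCG20 had -1.65 ± 0.59 and -1.34 ± 0.48 and were not called.

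ABCG1 was the only suberin gene called as higher. It had 42.4 and 39.5 CPM in EXS32 roots, 27.1 and 38.0 CPM in EXS34 roots, 34.8 and 33.7 CPM in KO roots, and 20.0 and 26.5 CPM in Compl roots. All 6 libraries without the full PHO1 transgene were above both Compl libraries. The fold change of EXS32 over Compl was 0.77 ± 0.18 (edgeR adjusted p = 0.0354). ABCG11, which serves cutin and wax export in shoots as well as suberin, had -0.46 ± 0.38 and was not called.

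Of the 7 MYB regulators, 1 was called. MYB39 had 1.24 and 0.618 CPM in EXS32 roots, 1.86 and 1.01 CPM in EXS34 roots, 1.62 and 1.43 CPM in KO roots, and 7.70 and 5.60 CPM in Compl roots. Every library of the mutant and the EXS lines was below both Compl libraries by a wide margin, and Compl replicate 2 was not low here. The fold change of EXS32 over Compl was -2.89 ± 0.43 (edgeR adjusted p = 0.00986), the lowest of the 41 members.

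The other MYB genes had negative fold changes without a call, from -2.30 ± 0.67 for MYB41, a stress-responsive inducer of suberin, to -0.66 ± 0.29 for MYB92, an activator of suberin genes. MYB92 had the highest level per exon length of the 7, and had 32.9 and 37.0 CPM in EXS32 roots, 43.9 and 27.7 CPM in EXS34 roots, 46.7 and 40.7 CPM in KO roots, and 66.8 and 39.8 CPM in Compl roots. MYB9 and MYB107, a related pair first studied in seed coats, had -1.28 ± 0.44 and -0.99 ± 0.38. MYB53 and MYB93 had -1.66 ± 0.45 and -1.34 ± 0.58. The median log2 fold change over the 7 was -1.34.

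GDSL lipases act outside the cell, and some of them join or remove suberin monomers. None of the 4 was called by edgeR for EXS32 against Compl, although each had an unadjusted p under 0.05. DESeq2 called 3 of them among 3404 genes in all. Shares of all genes in this text are for adjusted p, so none is given beside an unadjusted p. The GDSL lipase gene AT2G23540 had 67.9 and 72.2 CPM in EXS32 roots, 85.8 and 196 CPM in EXS34 roots, 76.6 and 106 CPM in KO roots, and 355 and 108 CPM in Compl roots. Compl replicate 1 held more than 3 times the level of Compl replicate 2, and EXS34 replicate 2 more than 2 times that of EXS34 replicate 1. Its fold change of EXS32 over Compl was -1.78 ± 0.58 (edgeR adjusted p = 0.0888). AT5G37690, AT1G74460 and AT3G50400 had -2.32 ± 0.67, -1.21 ± 0.36 and -1.55 ± 0.48.

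**Figure D2:**
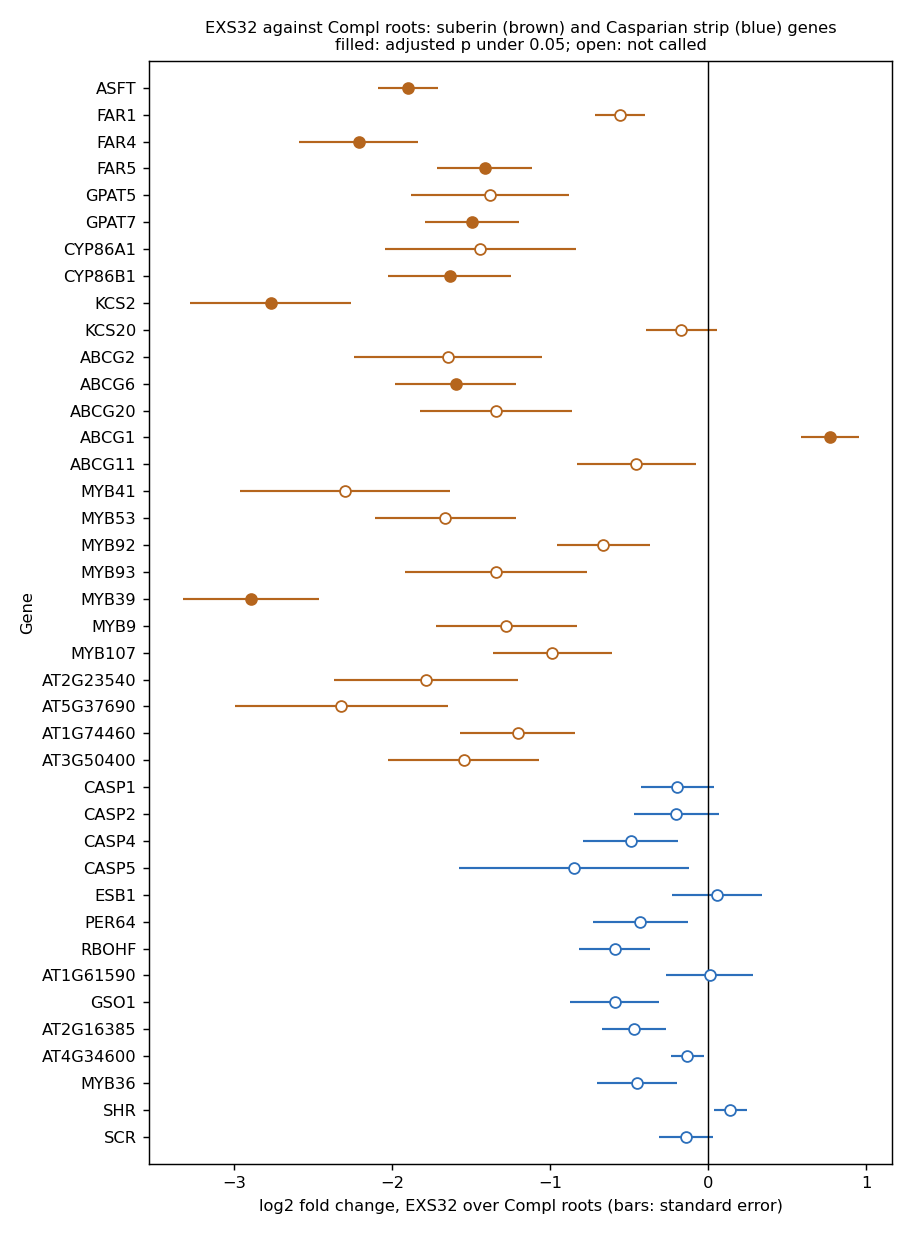
The log2 fold change of EXS32 over Compl roots with its standard error for the 26 suberin genes (brown) and 14 of the 15 Casparian strip genes (blue), filled where the gene was called. Called suberin genes run from MYB39 (-2.89) to FAR5 (-1.41) on the lower side with ABCG1 (0.77) alone on the other, and the blue points lie between -0.85 (CASP5) and 0.14 (SHR) with none filled.

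No genotype comparison in roots called a Casparian strip gene by edgeR or DESeq2. CASP1, a scaffold protein of the strip domain, had 130 and 136 CPM in EXS32 roots, 147 and 102 CPM in EXS34 roots, 133 and 102 CPM in KO roots, and 169 and 124 CPM in Compl roots. The genotypes overlapped, and the log2 fold change of EXS32 over Compl was -0.20 ± 0.23. CASP2, CASP4 and CASP5 had -0.20 ± 0.27, -0.49 ± 0.30 and -0.85 ± 0.73.

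Lignin deposition at the strip needs ESB1, a dirigent-like protein, the peroxidase PER64 and the NADPH oxidase RBOHF. ESB1 had 146 and 147 CPM in EXS32 roots, 176 and 107 CPM in EXS34 roots, 125 and 115 CPM in KO roots, and 167 and 104 CPM in Compl roots. The 2 Compl libraries enclosed those of EXS32 and KO, and the fold change of EXS32 over Compl was 0.06 ± 0.29. PER64 and RBOHF had -0.43 ± 0.30 and -0.59 ± 0.22, and RBOHF was the 1 Casparian strip gene with an unadjusted p under 0.05 in that comparison.

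Barrier surveillance works through the receptor kinase GSO1 (also named SGN3), the CIF peptides it perceives and the SGN kinase downstream of it. The CIF gene AT4G34600 had 84.1 and 79.2 CPM in EXS32 roots, 92.2 and 85.1 CPM in EXS34 roots, 89.6 and 81.3 CPM in KO roots, and 82.8 and 89.9 CPM in Compl roots. It was the steadiest of the 41 members, with its highest root library 1.16 times its lowest, and its fold change of EXS32 over Compl was -0.13 ± 0.10. The CIF gene AT2G16385, the SGN gene AT1G61590 and GSO1 had -0.47 ± 0.20, 0.01 ± 0.27 and -0.59 ± 0.28. GSO1 held 108 CPM in Compl replicate 1 and 46.9 to 78.1 CPM in the other 7 root libraries.

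None of the transcription factors that set up the endodermis was called. MYB36, which switches on the CASP genes and their partners, had 22.4 and 24.3 CPM in EXS32 roots, 24.6 and 23.9 CPM in EXS34 roots, 27.1 and 22.3 CPM in KO roots, and 39.0 and 22.6 CPM in Compl roots. Compl replicate 1 was alone above the other 7 libraries. SHR, the factor that moves from the stele into the endodermis and activates SCR there, had 49.5 and 46.1 CPM in EXS32 roots, 49.7 and 45.9 CPM in EXS34 roots, 49.7 and 45.8 CPM in KO roots, and 42.5 and 41.2 CPM in Compl roots. Both Compl libraries were the lowest, by a small margin. The fold changes of EXS32 over Compl were -0.45 ± 0.25 for MYB36, -0.14 ± 0.17 for SCR and 0.14 ± 0.10 for SHR.

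The level of both lists followed single libraries, and that of the suberin genes also differed between EXS32 and Compl. Compl replicate 1 was the highest of the 8 root libraries for 24 of 26 suberin genes (92.3%), 8 of 15 Casparian strip genes (53.3%) and 18.5% of all genes tested. The median ratio of Compl replicate 1 over Compl replicate 2 was 2.10 over the suberin genes, 1.38 over the Casparian strip genes and 0.97 over all genes. The lists parted in EXS34, where the median ratio of replicate 2 over replicate 1 was 1.52 over the suberin genes and 0.70 over the Casparian strip genes, against 1.02 over all genes. They parted in the same direction but less in KO, where the same medians were 1.30, 0.90 and 1.03. In the EXS34 pair 21 of 26 suberin genes but 2 of 15 Casparian strip genes were higher in replicate 2, against 11274 of all 20597 genes tested. An EXS32 library was the lowest of the 8 for 18 of 26 suberin genes (69.2%), 3 of 15 Casparian strip genes and 25.1% of all genes.

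**Figure D3:**
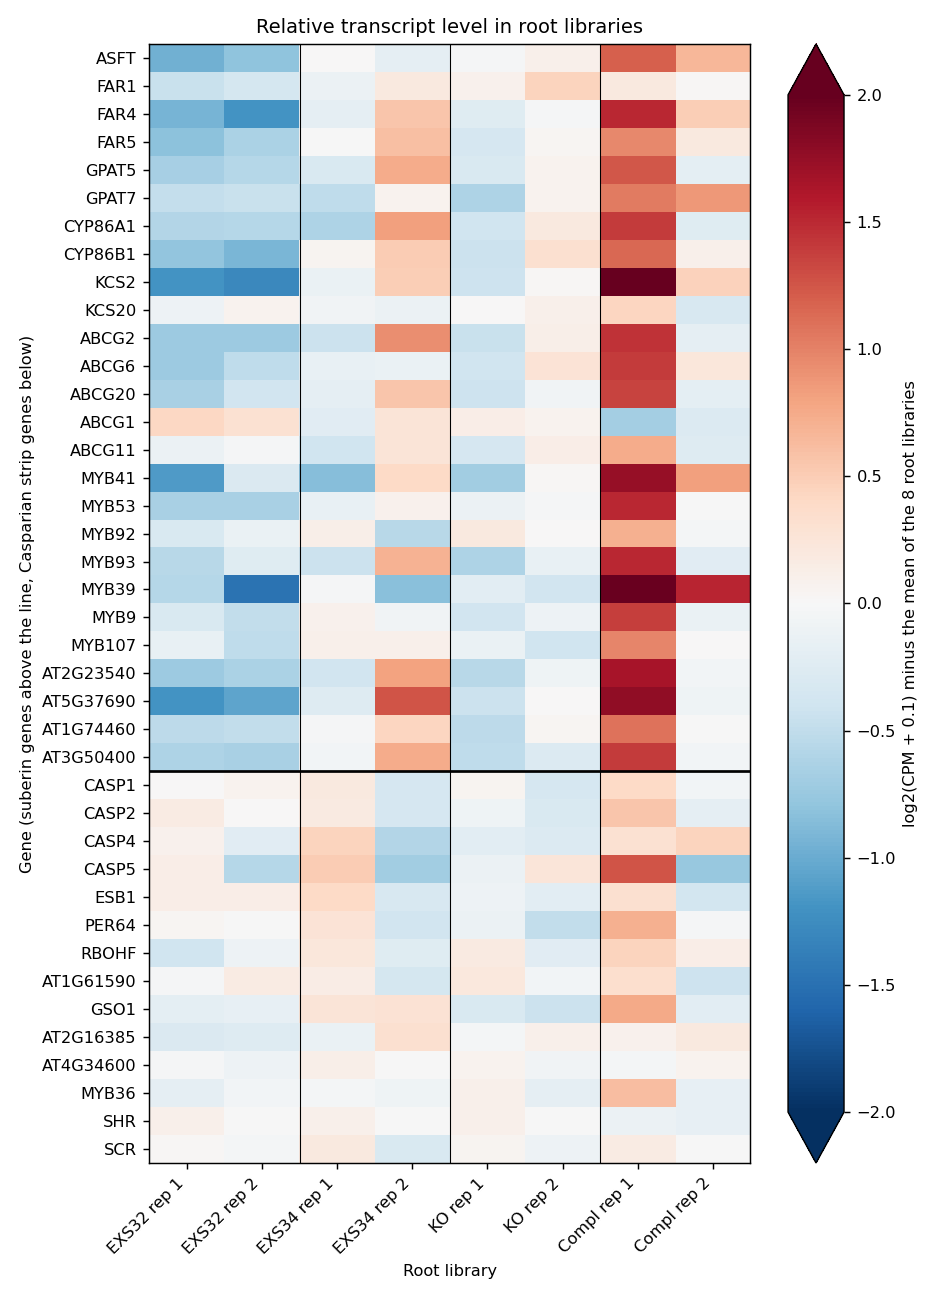
Heat map of 40 of the 41 genes (down, suberin above the line and Casparian strip below) in the 8 root libraries (across), coloured by log2(CPM + 0.1) minus the mean of the 8 libraries. The 26 suberin genes have a median of 1.36 in Compl replicate 1 and of -0.63 and -0.54 in the EXS32 libraries, whereas the medians of all 15 Casparian strip genes stay between -0.32 (EXS34 replicate 2) and 0.36 (Compl replicate 1).

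The calls for EXS32 against Compl rested on libraries in different degrees. Without Compl replicate 1, 4 suberin genes were called (ASFT, FAR4, KCS2 and MYB39), and without Compl replicate 2 there were 23 together with the Casparian strip genes GSO1 and MYB36. Without either of the EXS32 libraries ASFT alone was called. DESeq2 called 18 suberin genes among 3404 genes in all. The libraries of EXS32 and Compl fitted alone gave 5 suberin genes, and both settings called no Casparian strip gene. ASFT was called in 14 of 14 settings, FAR4 and MYB39 in 12, GPAT7 and KCS2 in 11, FAR5 in 10, ABCG1 in 9, and CYP86B1 and ABCG6 in 6.

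Without a model, both EXS32 libraries were below both Compl libraries for 23 of 26 suberin genes, 3 of 15 Casparian strip genes and 27.2% of all genes tested. The counts were 5 and 0 for EXS34 against Compl, with 15.7% of all genes, and 11 and 3 for KO against Compl, with 18.3% of all genes. These comparisons share the Compl libraries.

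Several marker genes of xylem and root hairs were also called lower in EXS32 than in Compl roots, where 7.27% of all genes were. Summed over the 26 genes, the suberin level was 694 to 738 CPM in EXS32, 892 to 1410 CPM in EXS34, 858 to 1073 CPM in KO and 1043 to 2375 CPM in Compl roots. The 15 Casparian strip genes summed to 892 to 903 CPM in EXS32, 771 to 1055 CPM in EXS34, 763 to 905 CPM in KO and 841 to 1181 CPM in Compl roots. Of 5 xylem markers 4 were called lower for EXS32 against Compl, and their sum was 396 to 411 CPM in EXS32, 385 to 461 CPM in EXS34, 370 to 418 CPM in KO and 530 to 734 CPM in Compl roots. Of 5 root hair markers 3 were called lower, with sums of 287 to 295 CPM in EXS32, 228 to 244 CPM in EXS34, 287 to 308 CPM in KO and 362 to 483 CPM in Compl roots.

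The 3 phloem markers summed to 274 to 307 CPM in EXS32, 191 to 254 CPM in EXS34, 247 to 251 CPM in KO and 170 to 202 CPM in Compl roots, and 1 of them was called higher for EXS32 against Compl. The 2 cambium markers summed to 116 to 124 CPM in EXS32, 135 to 161 CPM in EXS34, 123 to 149 CPM in KO and 132 to 150.1 CPM in Compl roots, with 1 called lower. None of these markers was at 0 in a root library, and Compl replicate 1 was the higher Compl library in the suberin, Casparian strip, xylem and root hair sums. Of all genes 7.27% were called lower and 5.1% higher for EXS32 against Compl. The part of these cell types, and of Compl replicate 1, in the suberin result was not tested.

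**Figure D4:**
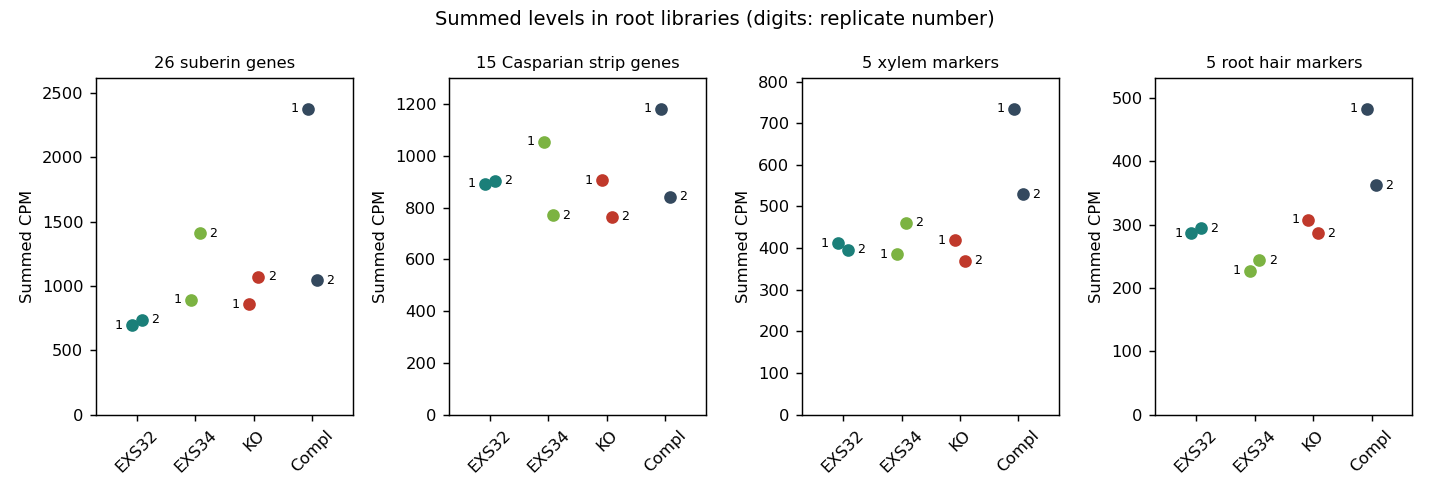
Summed CPM per root library of the 26 suberin genes, the 15 Casparian strip genes, 5 xylem markers and 5 root hair markers, each on its own axis from 0, with digits for the replicate number. Compl replicate 1 is highest in all 4 panels (2375 CPM for suberin), and EXS34 replicate 2 lies above replicate 1 for suberin (1410 CPM) but below it for the Casparian strip genes (771 CPM).

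Other genes of these pathways were taken from lists by known role, where 7.27% of all genes were called lower and 5.1% higher for EXS32 against Compl. Of 15 genes that supply suberin precursors, 8 were called lower for EXS32 against Compl and none higher, with a median log2 fold change of -0.74. The 8 were PAL1 (-0.99), 4CL1 (-1.52), 4CL2 (-1.04), HCT (-0.74), C3H1 (-0.94), CCoAOMT1 (-1.01) and COMT1 (-1.19), which are phenylpropanoid enzymes also used for lignin, and KCR1 (-0.64), a reductase of fatty acid elongation. The 15 genes summed to 3086 to 3144 CPM in EXS32, 3825 to 4075 CPM in EXS34, 4222 to 4273 CPM in KO and 5117 to 5749 CPM in Compl roots. Of 12 further genes of the Casparian strip 11 were tested in roots, and CIF3 had no read there. The laccase gene LAC3 (-0.77 ± 0.18), the peroxidase gene PER39 (-1.05 ± 0.19) and MYB68 (-0.97 ± 0.15), a factor of the root pericycle, were called lower (edgeR adjusted p = 0.0331, 0.0155 and 0.0115). SCL3, a GRAS factor downstream of SHR and SCR, was called higher at 0.97 ± 0.20 (edgeR adjusted p = 0.024), and the median of the 11 was -0.38. KO against Compl, EXS34 against Compl and either line against KO called none of these genes by edgeR.

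The KO mutant was set against Compl in the same way. KO roots against Compl roots called none of the 41 members by edgeR, with 0.884% of all genes called. At an unadjusted p under 0.05 there were 15 suberin and 2 Casparian strip genes. No share of all genes is given at that threshold, so these counts cannot be read as an excess. DESeq2 called 5 suberin genes (ASFT, FAR4, GPAT7, MYB39 and AT3G50400), no Casparian strip gene and 1234 genes in all. The median log2 fold change of KO over Compl was -1.06 over the suberin genes, -0.38 over the Casparian strip genes and -0.01 over all genes. The nearest to a call were MYB39 at -2.20 ± 0.40 (edgeR adjusted p = 0.0593) and ASFT at -0.99 ± 0.19 (edgeR adjusted p = 0.0625). Genes of both lists were called without Compl replicate 2, and none of either without Compl replicate 1. With 1 library left out at a time, the medians ranged over -1.54 to -0.17 for suberin and -0.58 to -0.06 for the Casparian strip.

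EXS34 roots against Compl roots also called no member by edgeR, with 0.131% of all genes called. There were 9 suberin genes and no Casparian strip gene at an unadjusted p under 0.05. Again no share of all genes is given, so that count cannot be read as an excess. DESeq2 called 4 suberin genes (ASFT, GPAT7, ABCG6 and MYB39), no Casparian strip gene and 642 genes in all. The medians of EXS34 over Compl were -0.60 over the suberin genes, -0.16 over the Casparian strip genes and 0.00 over all genes. ASFT had -1.10 ± 0.19 (edgeR adjusted p = 0.0838) and MYB39 -2.27 ± 0.41 (edgeR adjusted p = 0.0931). Genes of both lists were called by edgeR without Compl replicate 2. With 1 library left out at a time, the medians ranged over -1.19 to 0.13 for suberin and -0.50 to 0.08 for the Casparian strip.

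The mean of both EXS lines against Compl called 6 suberin genes, all lower, and no Casparian strip gene, where 6.31% of all genes were called (4.04% lower and 2.26% higher). They were ASFT, FAR4, GPAT7, KCS2, ABCG6 and MYB39, and the medians were -1.05 over the suberin genes, -0.28 over the Casparian strip genes and -0.01 over all genes. MYB39 had -2.58 (edgeR adjusted p = 0.0121) and ASFT -1.50 (edgeR adjusted p = 0.00702). Fewer suberin genes were called without Compl replicate 1 or without any 1 EXS library. More were called without Compl replicate 2, with GSO1 and MYB36, and CASP4 was called without EXS34 replicate 1. With 1 library left out at a time, the medians ranged over -1.61 to -0.15 for suberin and -0.41 to 0.06 for the Casparian strip. DESeq2 called 13 suberin genes, no Casparian strip gene and 2446 genes in all.

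Setting the EXS lines against KO asks what the EXS domain adds in the mutant. EXS32 against KO called no member by edgeR, with 0.126% of all genes called. At an unadjusted p under 0.05 there were 3 suberin genes and no Casparian strip gene. DESeq2 called ASFT and FAR1 among 537 genes in all. No share of all genes is given here for the unadjusted threshold, so no count at it in this paragraph can be read as an excess. The median log2 fold change of EXS32 over KO was -0.45 over the suberin genes and 0.03 over the Casparian strip genes, and ASFT had -0.90 ± 0.19 (edgeR adjusted p = 0.135). EXS34 against KO called no member and 0% of all genes by edgeR, and no member had an unadjusted p under 0.05. DESeq2 called no member and 100 genes in all, and the medians were 0.34 and 0.10. The mean of both lines against KO called no member and 0% of all genes by edgeR. There were 2 suberin genes and no Casparian strip gene at an unadjusted p under 0.05, and DESeq2 called no member and 181 genes in all.

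The 2 EXS lines were also compared with each other. Without a call, 24 of 26 suberin genes had a positive fold change of EXS34 over EXS32. The share of all genes is not given, so this count cannot be read as an excess. The 26 genes summed to 1410 CPM in EXS34 replicate 2 and 892 CPM in replicate 1. They varied together, so these are not 24 separate observations. In EXS34 against EXS32 edgeR called 0.908% of all genes and no member. At an unadjusted p under 0.05 there were 7 suberin genes and no Casparian strip gene. With no share of all genes given, that count cannot be read as an excess either. DESeq2 called ASFT, FAR4, FAR5 and CYP86B1 among 1085 genes in all. The medians of EXS34 over EXS32 were 0.69 over the suberin genes, 0.01 over the Casparian strip genes and 0.02 over all genes. ASFT had 0.79 ± 0.19 (edgeR adjusted p = 0.0997) and FAR4 1.29 ± 0.37 (edgeR adjusted p = 0.147). A missing call does not show that the lines were alike, since the spread between the EXS34 libraries was wide for many of these genes, as for CYP86A1 with 72.9 and 197 CPM.

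Roots held far more of these transcripts than leaves. Averaged over genotypes, 24 of 26 suberin genes and 14 of 15 Casparian strip genes were called higher in roots, and 2 suberin genes lower. Of 21351 genes 81.6% were called (43.1% higher and 38.4% lower). All 41 members were tested here, but 19 passed the filter on low counts in leaves alone (13 suberin and 6 Casparian strip genes). The others can enter this fit through their root levels, so their calls as higher in roots are no independent support. The median log2 fold change of roots over leaves was 5.73 over the suberin genes, 7.15 over the Casparian strip genes and 0.06 over all genes. With genes of 3 or fewer leaf reads set at their bound the medians were 5.73 and 6.54. Scaling by library size alone moved the median of all genes up by 0.56.

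The CASP scaffold genes were nearly confined to roots. None of the 5 passed the filter in leaves, so they entered this test through roots and their p-values are no independent support. CASP1 ranged over 102, 131 and 169 CPM in roots (lowest, median and highest of 8 libraries), against 0, 0.140 and 0.562 CPM in leaves, a log2 fold change of 9.29 ± 0.27 (edgeR adjusted p = 8.27e-12). CASP5 had no read in any of the 8 leaf libraries, which makes it at least 50.02-fold higher in roots when the floor of 3 reads is taken over all leaf libraries. The SGN gene AT1G61590 had the largest fitted difference of the 41, at 9.78 ± 0.33. It had 8 reads in all leaf libraries together and did not pass the filter there, so its size and rank rest on few counts.

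Other Casparian strip genes were less specific to roots. SCR had 42.7, 53.0 and 60.6 CPM in roots and 26.6, 35.7 and 44.1 CPM in leaves, and was the 1 Casparian strip gene not called, at 0.06 ± 0.08 with TMM scaling (edgeR adjusted p = 0.511). Scaled by library size alone, as the CPM are, it was called higher in roots at 0.61 (edgeR adjusted p = 3.86e-06). SHR was higher in roots by 1.24 ± 0.07 and RBOHF by 1.74 ± 0.13 on the log2 scale. SCR and SHR are also known from the bundle sheath and veins of leaves.

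Among suberin genes ASFT had 51.4, 100.3 and 231 CPM in roots and 1.48, 2.96 and 3.93 CPM in leaves, a difference of 4.59 ± 0.14 on the log2 scale (edgeR adjusted p = 4.51e-12). The 2 called lower in roots were ABCG11 and KCS20. ABCG11 had 4.71, 5.93 and 10.5 CPM in roots and 61.2, 73.2 and 96.1 CPM in leaves, at -4.12 ± 0.15. KCS20 had 123, 150.5 and 206 CPM in roots and 125, 144 and 210.4 CPM in leaves; it was -0.50 ± 0.10 with TMM scaling (edgeR adjusted p = 3.74e-04) but 0.05 when scaled by library size alone.

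MYB39 and MYB41 each had 1 read and MYB107 had 3 reads in all leaf libraries together. The ratio of roots over leaves from pooled reads was 230.1 for MYB39, with an exact 95% counting interval of 41.3 to 9090. It was 71.4 (12.8 to 2822) for MYB41 and 71.0 (24.3 to 344) for MYB107. The intervals cover counting error only.

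Per kilobase of exon, the highest root means were those of CASP1 at 144 ± 24.4 CPM per kb (SD, n = 8), the CIF gene AT4G34600 at 95.5 ± 5.14, the GDSL lipase gene AT2G23540 at 84.4 ± 62.3, ESB1 at 78.4 ± 15.9 and PER64 at 76.7 ± 21.7 CPM per kb. KCS20 followed at 70.03 ± 10.98 CPM per kb, the highest of the monomer enzymes, and CYP86A1 and ASFT had 68.3 ± 42.6 and 61.5 ± 32.1 CPM per kb. Apart from the distance between CASP1 and the genes after it, these neighbours lay within their spread of each other. The lowest were MYB41 at 0.575 ± 0.501 and MYB107 at 1.61 ± 0.634 CPM per kb. The spread between root libraries was wider for the suberin genes, with a median ratio of highest over lowest library of 4.10, against 1.75 for the Casparian strip genes and 1.60 for all genes tested. It was widest for MYB39 at 12.5 and KCS2 at 10.2.

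**Figure D5:**
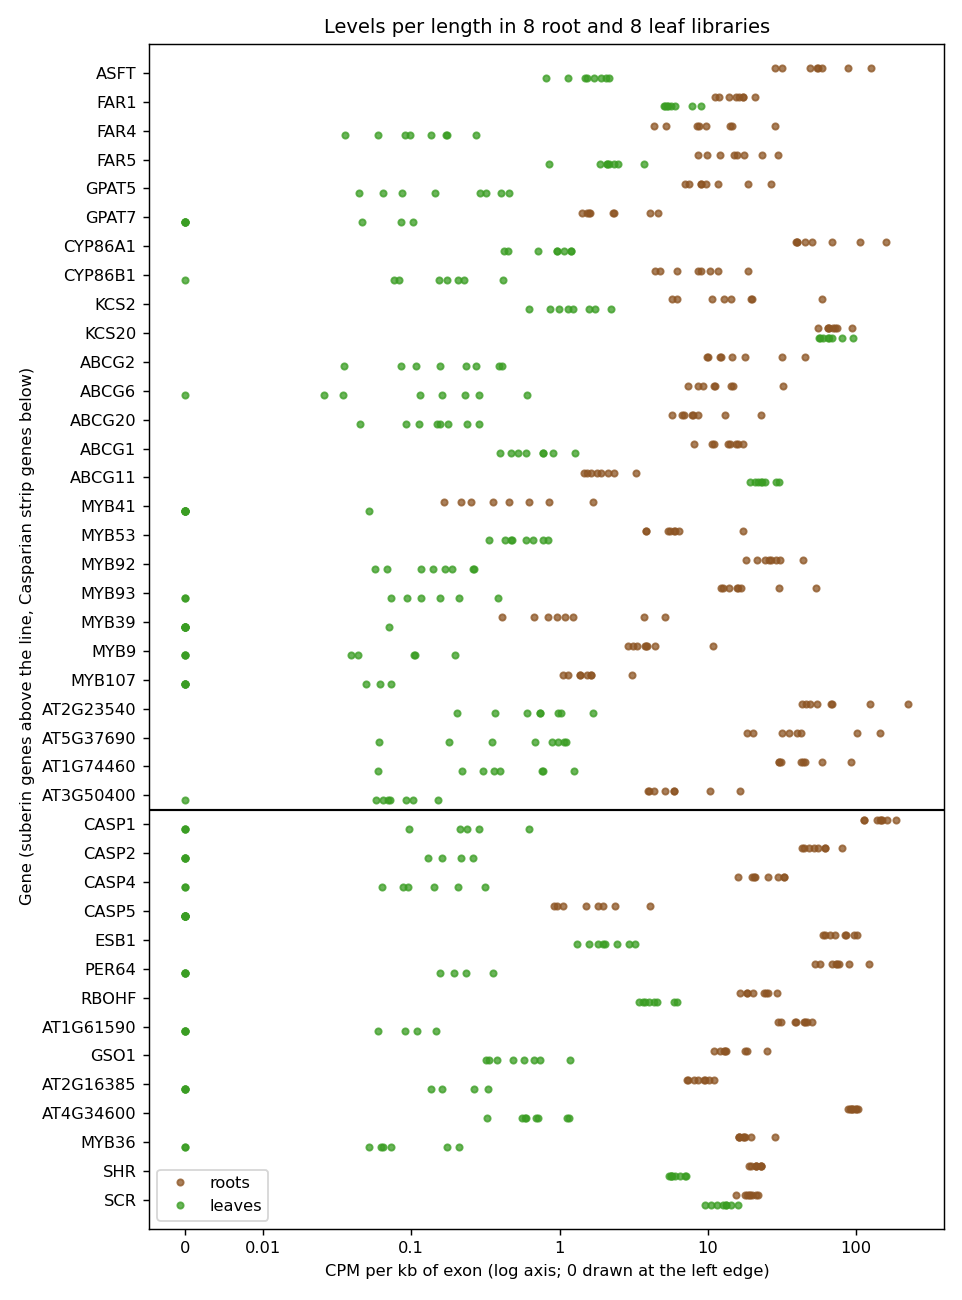
Level per kilobase of exon (CPM per kb, log axis, zeros at the left edge) of 40 of the 41 genes in the 8 root and 8 leaf libraries, 1 point per library. Root points lie to the right of leaf points for nearly all genes (CASP1 averages 144 in roots and 0.182 in leaves), while ABCG11 is reversed (2.01 and 23.8) and KCS20 and SCR overlap or nearly overlap.

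In leaves 19 of the 41 genes passed the filter on low counts, 13 for suberin and 6 for the Casparian strip, so the others are not covered by the leaf tests. Between 1 and 3 members were called in each pair of labelled groups, where 21.1% of 18548 genes were called for KO against Compl, 5.93% for EXS32 against KO, 6.41% for EXS34 against KO, 14.8% for EXS32 against Compl, 18.3% for EXS34 against Compl and 5.69% for EXS34 against EXS32. The members called in at least 1 pair were FAR1, KCS20, ABCG2, ABCG11 and AT2G23540 for suberin, and ESB1 and SCR for the Casparian strip. Of these, ABCG2 passed the filter only through the group in which it was called higher.

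FAR1 had 12.2 and 11.9 CPM in leaves labelled EXS32, 17.7 and 20.3 CPM in those labelled EXS34, 13.7 and 12.8 CPM in those labelled KO, and 11.7 and 11.4 CPM in those labelled Compl. The EXS34 libraries were above all others, with 0.68 ± 0.13 relative to Compl (edgeR adjusted p = 0.00795), 0.63 ± 0.13 relative to EXS32 (edgeR adjusted p = 0.0254) and 0.49 ± 0.12 relative to KO (edgeR adjusted p = 0.0481). KCS20 had 177 and 210.4 CPM in leaves labelled EXS32, 127 and 143 CPM in EXS34, 125 and 132 CPM in KO, and 152 and 146 CPM in Compl. It was higher for EXS32 by 0.59 ± 0.10 relative to KO and 0.37 ± 0.10 relative to Compl (edgeR adjusted p = 0.0139 and 0.0370).

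ABCG11, the transporter of the leaf surface, had 70.2 and 77.9 CPM in leaves labelled EXS32, 61.2 and 73.8 CPM in EXS34, 72.6 and 66.7 CPM in KO, and 96.1 and 92.2 CPM in Compl. The Compl libraries were above all others, and the log2 fold changes were -0.51 ± 0.11 for EXS34 and -0.44 ± 0.11 for KO relative to Compl (edgeR adjusted p = 0.0125 and 0.0189). SCR had 39.5 and 44.1 CPM in leaves labelled KO against 26.6 and 28.9 CPM in Compl, a log2 fold change of 0.58 ± 0.11 (edgeR adjusted p = 0.00548). ESB1 had 2.25 and 3.38 CPM in KO against 5.56 and 5.07 CPM in Compl, at -0.93 ± 0.28 (edgeR adjusted p = 0.0407). ABCG2 and AT2G23540 were at or below 2.65 CPM in every leaf library. ABCG2 had 12 and 10 reads in leaves labelled EXS34 against 1 and 2 in Compl, a log2 fold change of 2.66 ± 0.74 (edgeR adjusted p = 0.0366). It passed the filter on low counts only through the EXS34 libraries, so that call is no independent support for a difference. AT2G23540 was higher for EXS34 than for KO by 2.23 ± 0.46 on the log2 scale (edgeR adjusted p = 0.024).

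The names of the deposited leaf tables give the groups labelled KO, Compl, EXS32 and EXS34 as complemented, EXS32, EXS34 and pho1-4 in that order. The same 2 libraries of each group are then compared under other genotype names, so the levels stand as printed but their genotype does not. By those names FAR1 is highest in the pho1-4 mutant, KCS20 in EXS34 and ABCG11 in EXS32. Which naming holds was not tested, and no root result depends on it.

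Whether a genotype difference in roots differed from that in leaves was tested as an interaction in 1 fit of all 16 libraries. For EXS32 against Compl, ASFT and KCS2 were called, with the root minus the leaf log2 fold change at -1.97 ± 0.42 and -3.56 ± 0.83 (edgeR adjusted p = 0.0083 and 0.0147), where 16.3% of all genes were called. For EXS34 against Compl, ASFT (-1.56 ± 0.40) and FAR1 (-0.80 ± 0.21) were called (edgeR adjusted p = 0.0407 and 0.0449), where 6.34% were. For KO against Compl, SCR was called at -0.74 ± 0.22 (edgeR adjusted p = 0.0424), where 13.4% were. No member was called by edgeR in the interactions of EXS32 against KO, EXS34 against KO or EXS34 against EXS32, where 1.55%, 1.74% and 6.78% of all genes were called. In that order 4, 2 and 3 members had an unadjusted p under 0.05. No share of all genes is given at that threshold, so these counts cannot be read as an excess. Over the 6 interactions together DESeq2 called 7 suberin and 3 Casparian strip genes. Its calls over all genes were not counted there, so these cannot be read as an excess. Under the table names the leaf side of each interaction changes.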

How the data were processed

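Stranded mRNA libraries of roots and leaves were compared from the count tables deposited by the authors, which hold whole-number read counts per gene and library with no normalization. Per the submitters' processing notes the build was TAIR10 and the tools were HTSeq 0.5.4p3, TopHat2 2.0.9, cutadapt 1.2.1, edgeR and limma under R 3.1.1. Settings such as the strand option: not given in the sources used here. The 5 closing lines of each table name no gene; they held 8.57 to 10.3% of the reads in root tables and 7.26 to 7.77% in leaf tables and were left out. No column of another series was present (0 columns).

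Levels are CPM by library size alone, and CPM per kb divides by exon length in TAIR10.1. Genes were kept by filterByExpr (count of 10, total of 15), scaled by TMM and tested with the robust quasi-likelihood test of edgeR 4.0.16 in R 4.3.3, in 1 fit for the 8 root libraries, 1 for the 8 leaf libraries and 1 for all 16. P-values were adjusted by Benjamini-Hochberg over all genes of a fit, with a threshold of 0.05, and each standard error (SE) is the fitted log2 value over the root of its F statistic. Tests were two-sided. The fit was tested on simulated data. DESeq2 1.42.0, other scalings, no filter, a replicate block, the 2 groups alone, leaf groups by table name and each left-out library were alternatives.

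The members, lists and tests were chosen with earlier results of these data known. Values per library are given for members called in at least 1 root comparison and for the highest member of each role, and other members by ranges and counts. For 1 member no single value is reported here; it is included in the counts, medians and sums. Leaf groups follow the sample labels, which differ from the table names. No library was pooled or dropped: replicates differed by more than sampling noise, with a chi-square per degree of freedom of 4.16 to 39.2. Depth sets the counting error, and 3 reads were taken as the floor for a count of 0.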

Additional observations from a re-analysis of the deposited data

Results flagged for a closer look

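Among the 8 root libraries, 13 of the 41 genes had a highest library farther from the next than Dixon's 95% critical value of 0.526. That value holds for independent normal values, while these are CPM of genes that vary together. The share of all genes past this value, or past those used below, was not counted. The gap as a share of the whole range was 0.574 for FAR4, 0.731 for KCS2, 0.702 for ABCG6, 0.567 for ABCG20, 0.547 for MYB41 and 0.809 for MYB53. It was 0.560 for MYB93, 0.815 for MYB9, 0.709 for MYB107, 0.552 for AT2G23540, 0.539 for AT1G74460, 0.538 for CASP5 and 0.712 for MYB36. In each of the 13 the library was Compl replicate 1, so they are not 13 separate observations, and 11 are suberin genes.

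Among the 4 EXS root libraries, with a critical value of 0.829, EXS34 replicate 2 stood apart as the highest for GPAT7 (0.923), CYP86A1 (0.985), ABCG2 (0.895) and AT2G23540 (0.861). Among the 8 leaf libraries, ABCG6 stood apart in EXS34 replicate 2 (0.529), CASP1 in EXS34 replicate 1 (0.542), MYB41 in KO replicate 2 (1.000) and MYB39 in Compl replicate 2 (1.000). The last 2 rest on 1 read each.

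The root and leaf differences between genotypes were themselves unlike, by the interaction term of edgeR, for 4 genes in 5 tests. For EXS32 against Compl the term was -1.97 for ASFT and -3.56 for KCS2, where 16.3% of all genes were called. For EXS34 against Compl it was -1.56 for ASFT and -0.795 for FAR1, where 6.34% were. For KO against Compl it was -0.744 for SCR, where 13.4% were. In none of these tests were the 41 members called more often than all genes. Each uses the leaf genotypes as labelled. By the table names the term was 0.036 for FAR1 in EXS34 against Compl and 0.15 for SCR in KO against Compl.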

How the results depend on the processing

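With 2 libraries a group, calls moved with single libraries. Leaving out 1 library at a time gave 1 to 23 suberin, 0 to 2 Casparian strip and 112 to 3302 genes in all for EXS32 against Compl, 1 to 22, 0 to 2 and 95 to 2409 for the mean of the EXS lines against Compl, 0 to 13, 0 to 2 and 0 to 1427 for KO against Compl, and 0 to 7, 0 to 1 and 0 to 698 for EXS34 against Compl. It gave 0 to 1 suberin genes for EXS32 against KO, 0 to 2 suberin genes and 0 to 355 genes in all for EXS34 against EXS32, 2 to 5 suberin and 0 to 2 Casparian strip genes in leaves, and 1 to 8 and 0 to 2 in the interactions. DESeq2 called 18 suberin genes for EXS32 against Compl (3404 genes in all), 13 for the mean of the lines against Compl (2446) and 5 for KO against Compl (1234). It called 2 for EXS32 against KO (537), 4 for EXS34 against Compl (642) and 4 for EXS34 against EXS32 (1085). In leaves it called 3 suberin and 1 Casparian strip gene, and in the interactions 7 and 3. Its calls over all genes were not counted there, so these cannot be read as an excess. The 2 groups alone gave 5 suberin genes for EXS32 against Compl and 4 for EXS32 against KO. No filter gave 2 for KO against Compl and 3 for the mean of the lines against Compl. Leaf groups by table name gave 1 suberin and 0 Casparian strip genes in the interactions. Library size alone moved the share of higher calls to 65.8% (52.8% with TMM) for KO against Compl, 50.3% (41.2%) for EXS32 against Compl, 47.6% (35.9%) for the mean of the lines against Compl and 73.6% (52.9%) for roots against leaves.

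Deviations of same-numbered libraries from their group means had r of -0.34 to 0.26 in roots and 0.03 to 0.36 in leaves. In leaves all 6 pairs were positive and 4 of 6 exceeded 0.1, but not every pair did, so the numbers were not taken as pairing. In leaves the replicate block gave 5 suberin and 3 Casparian strip genes over the 6 pairs of genotypes (5 and 2 without it). In roots it gave 1 suberin gene for KO against Compl, 7 members for EXS32 against Compl and 4 for the mean of the lines against Compl.

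Leaving out 1 library gave -0.72 to 0.10 for FAR5 and -0.94 to 0.16 for CYP86B1 in EXS34 against Compl, neither called, positive only without Compl replicate 1, and -0.014 to 0.12 for SCR in roots against leaves, negative only without root EXS34 replicate 1. Directions also turned with library size alone for KCS20 in roots against leaves (0.052). With leaf groups by table name they turned for ESB1 (0.12) and SCR (-0.30) in KO against Compl, FAR1 (-0.63) and AT2G23540 (-0.65) in EXS34 against KO, FAR1 (-0.13), ABCG2 (-0.034) and ABCG11 (0.088) in EXS34 against Compl, KCS20 (0.37) in EXS34 against EXS32, and the interactions of SCR (0.15, KO against Compl) and FAR1 (0.036, EXS34 against Compl). The cause was not tested beyond the construction of each setting.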

Other observations

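Genes of cutin and wax synthesis, the surface polymers of shoots that share chemistry with suberin, were set beside the root barrier genes. Of all genes 38.4% were called lower and 43.1% higher in roots than in leaves. In EXS32 against Compl roots 7.27% of all genes were called lower. Of 12 such genes 10 were called lower in roots than in leaves, with a median log2 fold change of -3.40 and CER6 at -7.30, while GPAT6 (1.14) and CYP86A4 (1.72) were called higher in roots. In EXS32 against Compl roots, GPAT4 (-1.59 ± 0.31) and CYP86A4 (-2.01 ± 0.44) were called lower (edgeR adjusted p = 0.0229 and 0.0296) among 11 tested, with a median of -0.60.

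Of 5 green tissue markers 4 were tested in roots, and 2 were called higher for EXS32 against Compl, with a median log2 fold change of 0.78. In that comparison 5.1% of all genes were called higher. The part of green tissue in the root levels was not tested.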
